A study of Mus musculus with 30 samples.

Results

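The genes described here are 39 genes of protein folding in the endoplasmic reticulum (ER), of the unfolded protein response and of ER-associated degradation, taken by symbol from the 16025 gene symbols of the deposited count table. They were followed across all 10 groups of mouse C2C12 myotubes, the multinucleated cells formed when this wildtype myoblast line is differentiated, here for 5 to 7 days in medium with 2% serum. D-galactose, a sugar widely applied to model ageing in cells and animals, was given at 20 mg/mL for 24 h (Dgal) and compared with vehicle (control). The preparations from Korean Red Ginseng were a water extract (RGW), its saponin fraction (SFr) and its non-saponin fraction (NSFr) at 100 µg/mL, and the purified saponin ginsenoside Rb2 at 20 µM. Each was given for 12 h, either alone or ahead of D-galactose (RGW_Dgal, SFr_Dgal, NSFr_Dgal, Rb2_Dgal). Each group held 3 libraries, described as biological replicates, and all came from a single cell line. Whether cultures with a preparation alone were kept for a further 24 h is not given in the sources used here, so comparisons of a group with and without D-galactose may also differ in culture time.

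Proteins that enter the secretory pathway pass through the Sec61 channel into the ER, where chaperones of the HSP70 and HSP90 families, lectin chaperones and disulfide isomerases fold them. When unfolded protein builds up, the sensors IRE1, PERK and ATF6 start the unfolded protein response, which raises the genes of these helpers through ATF6 and XBP1. Proteins that cannot be folded are drawn back out of the ER and degraded. In muscle cells this machinery also serves the calcium store and the secretion of matrix and signalling proteins.

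Of the 39 genes, 38 had enough counts to be tested among 12184 genes. Derl3, which encodes a member of the derlin family of the degradation machinery, had 0 to 2 counts per library, 20 in all, and was at 0 in 14 of the 30 libraries. Library totals ran from 22209306 to 30218420 counts, so that 3 counts, the upper limit that a count of 0 allows, stood for 0.0993 to 0.135 CPM, which are counts scaled to a common library size; these limits cover counting error only. Levels below are CPM after TMM scaling. A difference is a log2 fold change ± its standard error, with n = 3 libraries per group. A gene is said to rise or fall where the Benjamini-Hochberg adjusted p of edgeR's quasi-likelihood test, over all 12184 genes, was under 0.05. Shares of all genes are given for TMM scaling only, also beside counts made with another scaling. In bulk RNA, fewer cells of a type and less RNA per cell cannot be told apart.

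The promoters of the chaperone genes are shown first because the ER stress response element, to which ATF6 and XBP1 can bind together with NF-Y, is the known shared control sequence of this gene family. RefSeq's mouse table on GRCm38.p6 held the window from 250 bases before to 50 after the start site for 33 of the 39 genes. The element ERSE, searched as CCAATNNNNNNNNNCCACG on both strands, was found in 9 of these 33 (27.3%) and in 37 of all 27025 genes of the table (0.137%). ERSE-II, searched as ATTGGNCCACG, was found in 2 of 33 (6.06%), Dnajb11 and Herpud1, against 12 genes in all (0.0444%). The motif UPRE, searched as TGACGTGG, was found in 2 of 33 (6.06%), Txndc5 and Txndc11, against 193 genes in all (0.714%). CCAAT and CCACG are also parts of ERSE, and ERSE-II holds CCACG. A match of letters is a description and not evidence of binding. The element is known from this gene family, so its higher share among these genes is no new support. Only exact matches were searched, and variants of an element were not counted. The 250 bases before the RefSeq start are given for 6 genes whose levels are described below, 5 with ERSE and Herpud1 with ERSE-II, in gene orientation from 5′ to 3′ with the matched element in capitals. The 250-base window of Hspa5 lies at chr2:34771840-34772089 on the plus strand, Hsp90b1 at chr10:86705445-86705694 (minus), Calr at chr8:84846932-84847181 (minus), Canx at chr11:50325674-50325923 (minus), Pdia6 at chr12:17266339-17266588 (plus) and Herpud1 at chr8:94386179-94386428 (plus).
Hspa5: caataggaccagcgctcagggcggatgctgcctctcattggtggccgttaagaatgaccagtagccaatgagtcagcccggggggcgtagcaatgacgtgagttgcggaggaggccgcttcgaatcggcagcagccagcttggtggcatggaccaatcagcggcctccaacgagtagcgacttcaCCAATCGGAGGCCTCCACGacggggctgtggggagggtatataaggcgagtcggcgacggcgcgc
Hsp90b1: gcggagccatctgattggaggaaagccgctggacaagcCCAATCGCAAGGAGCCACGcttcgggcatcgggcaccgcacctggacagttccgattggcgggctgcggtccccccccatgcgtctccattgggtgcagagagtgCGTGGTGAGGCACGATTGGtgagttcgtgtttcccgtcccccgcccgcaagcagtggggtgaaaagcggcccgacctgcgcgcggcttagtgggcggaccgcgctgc
Calr: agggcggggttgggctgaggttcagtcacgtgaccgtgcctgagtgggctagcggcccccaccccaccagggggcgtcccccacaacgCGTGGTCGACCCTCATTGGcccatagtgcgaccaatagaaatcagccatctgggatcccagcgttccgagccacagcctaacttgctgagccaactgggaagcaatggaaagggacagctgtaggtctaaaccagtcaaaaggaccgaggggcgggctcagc
Canx: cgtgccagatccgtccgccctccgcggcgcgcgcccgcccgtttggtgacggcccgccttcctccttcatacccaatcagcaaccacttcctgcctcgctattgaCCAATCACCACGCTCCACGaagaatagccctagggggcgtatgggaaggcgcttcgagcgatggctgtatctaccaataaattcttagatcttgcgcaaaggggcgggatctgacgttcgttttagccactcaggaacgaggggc
Pdia6: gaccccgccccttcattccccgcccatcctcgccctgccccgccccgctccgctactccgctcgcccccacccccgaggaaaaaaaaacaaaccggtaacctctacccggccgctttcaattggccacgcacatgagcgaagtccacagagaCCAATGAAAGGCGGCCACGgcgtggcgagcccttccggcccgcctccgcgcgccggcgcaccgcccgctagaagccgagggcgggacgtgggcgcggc
Herpud1: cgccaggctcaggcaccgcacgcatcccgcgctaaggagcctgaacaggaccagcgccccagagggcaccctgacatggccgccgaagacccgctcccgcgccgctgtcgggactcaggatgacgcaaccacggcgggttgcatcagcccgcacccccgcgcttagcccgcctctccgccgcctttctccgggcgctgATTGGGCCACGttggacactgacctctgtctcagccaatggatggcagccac
The first base of the match lies at position -65 from the start in Hspa5, -98 in Pdia6, -145 in Canx, -162 in Calr and -52 in Herpud1. Hsp90b1 holds 2 matches, at -212 and -107. Dnajc3, Creld2, Syvn1 and Derl3 also hold an ERSE, at -105, -126, -44 and -156. The matches in Calr, Creld2 and Derl3 and the second in Hsp90b1 are on the strand opposite to the gene, so that the capitals there read as the reverse complement of the motif, and the others are in gene orientation.

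In the control myotubes, levels per kilobase of annotated exon were highest for 4 folding genes, Calr, P4hb, Hspa5 and Hsp90b1, and among the lowest for 2 of the 3 sensors. Calr, which encodes the lectin chaperone calreticulin and binds calcium, stood at 375.5 ± 18.8 CPM per kilobase (SD, n = 3). P4hb, the protein disulfide isomerase gene, followed at 292.2 ± 10.1, Hspa5, which encodes the ER HSP70 chaperone BiP, at 235.0 ± 8.55, and Hsp90b1, which encodes the ER HSP90 chaperone GRP94, at 227.8 ± 5.31 CPM per kilobase. The values of Hspa5 and Hsp90b1 lay within their spread. The lowest of the 38 were Ern1, which encodes the sensor IRE1, at 5.37 ± 0.175, Eif2ak3, which encodes the sensor PERK, at 4.41 ± 0.413, and Txndc11, a thioredoxin-domain gene, at 2.91 ± 0.133 CPM per kilobase. The gene of the third sensor, Atf6, stood higher, at 26.7 ± 1.3, and Xbp1 at 65.4 ± 1.77 CPM per kilobase.

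As a group, the 39 genes took a smaller share of the counts in every D-galactose group than in the same background without it, and the smallest share after SFr with D-galactose. The share was 0.924% ± 0.0253 of all counts in control and 0.833% ± 0.0243 in Dgal (SD, n = 3). It was 0.862% ± 0.0158 after SFr and 0.749% ± 0.00562 in SFr_Dgal. RGW gave 0.931% ± 0.00555 and RGW_Dgal 0.833% ± 0.0160. NSFr gave 0.943% ± 0.0214 and NSFr_Dgal 0.869% ± 0.00759, and Rb2 gave 0.952% ± 0.0164 and Rb2_Dgal 0.841% ± 0.0221. No library of a D-galactose group overlapped with its own background in this share, and the libraries of Dgal, RGW_Dgal and Rb2_Dgal overlapped with each other. In the test over the 10 groups 35 of the 38 genes differed, against a background of 72.9% of all genes tested. The 3 that did not pass were Eif2ak3, Txndc11 and Sil1, which encodes a nucleotide exchange factor of BiP.

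**Figure D1:**
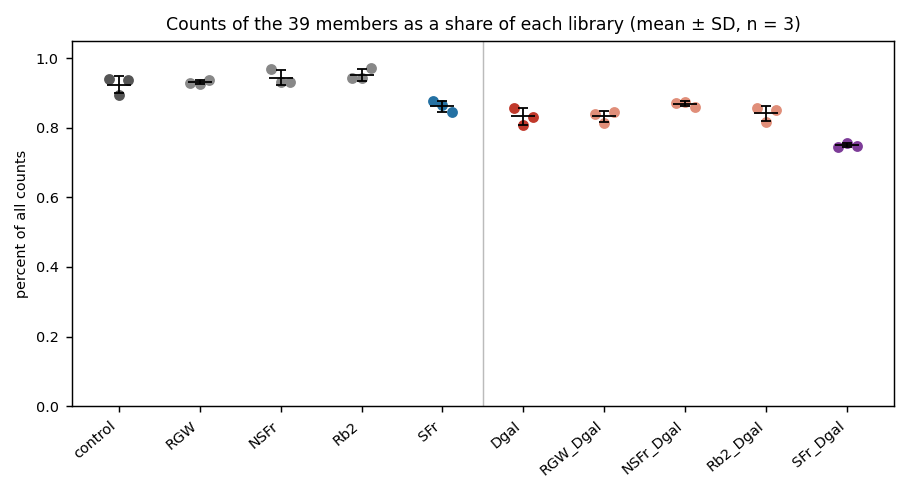
Share of all counts taken by the 39 genes in each library, in percent (points), with the mean and SD of 3 libraries per group. The SFr_Dgal libraries lie lowest, between 0.745% and 0.756%.

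**Figure D2:**
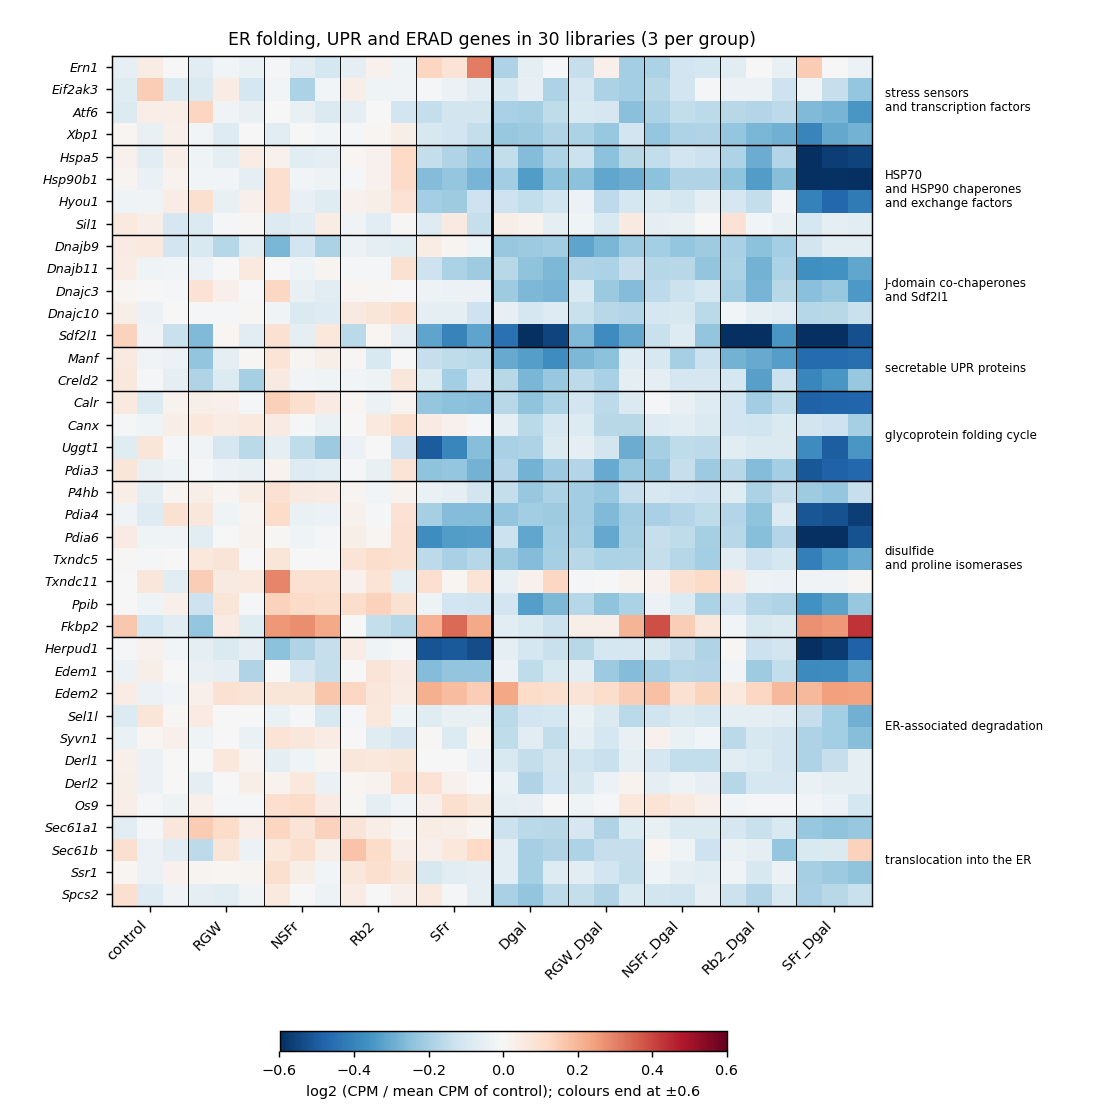
Level of the 38 tested genes in each of the 30 libraries as log2 of CPM over the mean CPM of control, grouped by role, with groups without D-galactose left of the thick line. Most rows are darker blue to the right of the line and darkest in the 3 SFr_Dgal libraries, while Edem2 and Fkbp2 are red there.

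The first comparison asked what D-galactose did to this machinery. D-galactose lowered genes of every role: 27 of the 38 fell and 1 rose, with a median log2 fold change of -0.15, a fall of 10.0%. This is 71.1% of the genes lower and 2.63% higher, against 13.1% lower and 11.9% higher among all genes tested, whose median was -0.00. With scaling by library totals alone 20 genes passed in either direction, and in a fit of the 2 groups alone 21, in place of 28. The largest falls were in Sdf2l1, Manf and Hsp90b1.

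Hspa5, whose product BiP holds nascent chains and keeps the stress sensors inactive, stood at 1011, 952 and 1018 CPM in control and 896, 831 and 874 CPM in Dgal. All 3 Dgal libraries were below all 3 controls, and Hspa5 fell by 12.7% (-0.20 ± 0.040, adjusted p = 0.000403). Hsp90b1 stood at 930.0, 894 and 932 CPM in control and 795, 728 and 774 CPM in Dgal, again without overlap (-0.26 ± 0.038, adjusted p = 3.23e-06). Hyou1, which encodes the large HSP70 relative that exchanges nucleotides on BiP, also fell (-0.13 ± 0.042, adjusted p = 0.0217). Of the 4 genes of this role only Sil1 did not pass the test (-0.00 ± 0.050, adjusted p = 0.979).

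Among the co-chaperones, Sdf2l1, whose product works with the J-domain protein ERdj3 to keep clients from aggregating, stood at 19.2, 17.2 and 15.9 CPM in control. In Dgal it stood at 12.8, 10.3 and 11.9 CPM. The groups did not overlap and Sdf2l1 fell by 33.3% (-0.59 ± 0.10, adjusted p = 5.17e-05). Dnajb11, which encodes ERdj3 itself, Dnajc3 and Dnajb9, other J-domain co-chaperones of BiP, fell by 14.5%, 16.1% and 14.2%. Dnajc10, a J-domain protein with disulfide reductase activity, did not pass (-0.08 ± 0.031, adjusted p = 0.0666). Both genes for secretable proteins fell. Manf, a BiP-binding factor that can leave the cell, stood at 122, 116 and 114 CPM in control and 95.2, 93.3 and 90.6 CPM in Dgal, with no overlap (-0.34 ± 0.048, adjusted p = 2.08e-06). Creld2, another BiP-associated gene of this response, fell by 14.3%.

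In the lectin cycle for glycoproteins 3 of 4 genes fell. Calr stood at 1125, 1021 and 1099 CPM in control and 964, 914 and 948 CPM in Dgal (-0.20 ± 0.034, adjusted p = 4.97e-05). The membrane-bound lectin chaperone gene Canx fell by 7.02%, and Pdia3, the isomerase that works with both lectins, by 14.3%. Uggt1, whose product re-tags glycoproteins that are not yet folded, missed the threshold (-0.15 ± 0.059, adjusted p = 0.0549). Of the 7 isomerases 5 fell: Ppib, the proline isomerase cyclophilin B, by 15.0%, Txndc5 by 14.3%, Pdia4 by 14.1%, Pdia6 by 13.9% and P4hb by 12.1%. The 2 that did not pass were Txndc11 (0.04 ± 0.056, adjusted p = 0.673) and Fkbp2, an ER proline isomerase of the FK506-binding family (-0.10 ± 0.080, adjusted p = 0.389). The exons of Ppib overlap those of Snx22 on the opposite strand over 825 bases, and those of Txndc5 overlap Bmp6 over 224, so reads there may not be assigned with certainty.

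Of the 4 stress sensors and factors 2 fell. Xbp1, whose spliced mRNA encodes the transcription factor of the IRE1 arm, stood at 214, 206 and 217 CPM in control and 181, 183 and 187 CPM in Dgal, without overlap (-0.21 ± 0.035, adjusted p = 2.54e-05). The table gives 1 value per gene and so does not separate the spliced form. Atf6 fell by 11.9%, while Ern1 (-0.08 ± 0.059, adjusted p = 0.356) and Eif2ak3 (-0.11 ± 0.065, adjusted p = 0.225) did not pass. In ER-associated degradation 5 of 8 tested genes fell and 1 rose. Sel1l and Syvn1, which encode the adaptor and ubiquitin ligase of the HRD1 complex, fell by 8.36% and 8.10%, and the channel gene Derl1 by 7.67%. Derl2 fell by 7.45% (adjusted p = 0.0488), and its exons overlap those of Mis12 on the opposite strand over 231 bases. Herpud1, the scaffold of that complex, stood at 278, 284 and 276 CPM in control and 269, 259.9 and 255 CPM in Dgal (-0.10 ± 0.037, adjusted p = 0.0489). This call was lost in 10 of 12 alternative settings, with adjusted p between 0.0393 and 0.205. Edem2, which encodes a mannosidase-like protein that marks glycoproteins for disposal, was the gene that rose, from 39, 36.9 and 37.4 CPM to 44.3, 40.7 and 40.4 CPM (0.14 ± 0.045, adjusted p = 0.0177). It lost its call without control replicate 2, without Dgal replicate 1 and in a fit of the 2 groups alone, with adjusted p up to 0.116. At the point of entry, 3 of 4 genes fell: Spcs2, of the signal peptidase, by 12.8%, the channel gene Sec61a1 by 9.94% and the translocon-associated Ssr1 by 7.44%. Sec61b did not pass (-0.15 ± 0.063, adjusted p = 0.0759).

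All 8 tested genes with an ERSE in the promoter window fell after D-galactose, with a median log2 fold change of -0.21. Of the 24 tested genes with a window and no ERSE, 14 fell and 1 rose, with a median of -0.14. Among all genes tested 13.1% fell and 11.9% rose. The 24 include Dnajb11 and Herpud1, which hold ERSE-II, and Txndc5 and Txndc11, which hold UPRE. Without an ERSE the values ran from -0.59, in Sdf2l1, to 0.14, in Edem2, so the ranges overlapped. After SFr 5 of the 8 fell, against 10 lower and 3 higher of the 24, with 21.8% lower and 21.3% higher among all genes. These counts are a description, and the difference between them was not tested.

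D-galactose cultures also differed from control in markers that are not part of this machinery. All 10 of 10 tested genes of dividing cells fell, their summed level going from 214.7 to 219.7 CPM in control to 92.5 to 103.7 CPM in Dgal. Mitochondrially encoded genes took 0.908% ± 0.211 of the counts in control and 1.49% ± 0.183 in Dgal. The summed level of 11 myotube markers was 26776 to 28639 CPM in control and 26201 to 26956 CPM in Dgal, where 2 of the 11 rose and 1 fell. The part of these in the ER results was not tested.

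**Figure D3:**
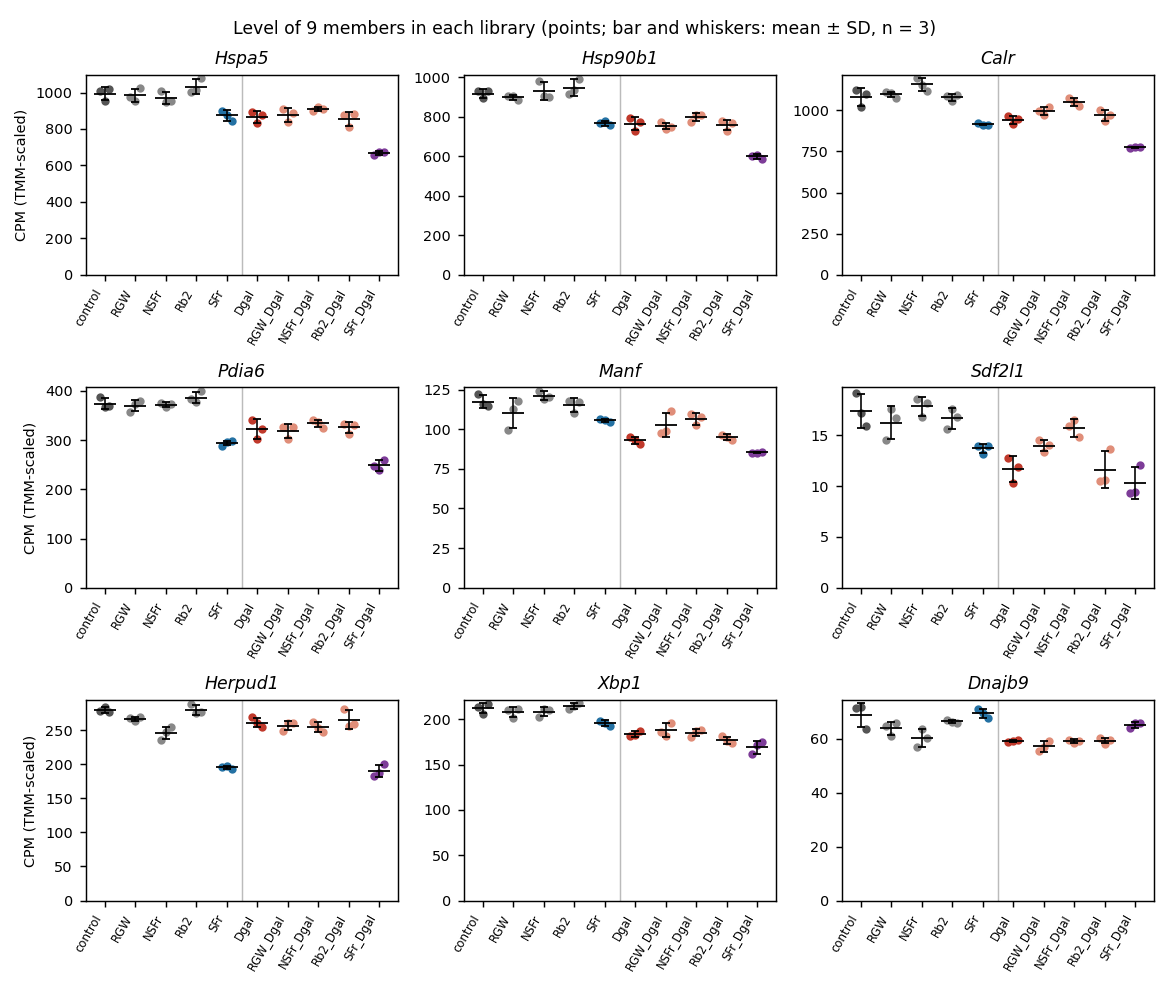
Level in CPM of 9 genes in each of the 30 libraries (points) with the mean and SD of 3 libraries per group, on axes that start at 0. For Hspa5, Hsp90b1, Calr and Pdia6 the SFr_Dgal libraries lie below all other libraries, and for Herpud1 both groups with SFr do.

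The second comparison asked what the saponin fraction did without D-galactose. SFr lowered 18 of the 38 genes and raised 3, 47.4% and 7.89%, against 21.8% lower and 21.3% higher among all genes tested. The median log2 fold change was -0.07. With scaling by library totals alone 13 were lower and 4 higher, with a median of -0.02, and the shares of all genes with that scaling are not given. By role, SFr lowered 2 of 4 sensors and factors and raised 1, lowered 3 of 4 HSP70 and HSP90 genes, 3 of 5 co-chaperones, both genes for secretable proteins and 3 of 4 of the lectin cycle. Of the isomerases 3 of 7 fell and 1 rose, of ER-associated degradation 2 of 8 fell and 1 rose, and none of the 4 genes of entry passed. The largest fall was in Herpud1.

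Herpud1 stood at 195, 197 and 194 CPM after SFr, all far below the 3 control libraries at 278, 284 and 276 CPM. It fell by 30.1% (-0.52 ± 0.037, adjusted p = 1.15e-13). Uggt1 went from 184, 204 and 193 CPM in control to 137, 148 and 162 CPM (-0.38 ± 0.059, adjusted p = 5.27e-06). Pdia6, a disulfide isomerase that binds BiP and IRE1, went from 387, 367 and 369 CPM to 289, 296 and 298 CPM (-0.35 ± 0.040, adjusted p = 8.09e-09). In each of these the SFr libraries lay below all controls.

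Of the HSP70 and HSP90 role 3 of 4 fell. Hspa5 was at 901, 877 and 845 CPM after SFr (-0.18 ± 0.040, adjusted p = 0.000295) and Hsp90b1 at 767, 782 and 757 CPM (-0.26 ± 0.038, adjusted p = 9.30e-07). Hyou1 fell by 11.7%. Sdf2l1 was at 14, 13.2 and 14 CPM (-0.34 ± 0.095, adjusted p = 0.00364), and Dnajb11 and Dnajc10 fell by 11.5% and 5.22%. Dnajb9 (0.01 ± 0.042, adjusted p = 0.857) and Dnajc3 (-0.03 ± 0.043, adjusted p = 0.565) did not pass. Calr was at 919.9, 912 and 910.2 CPM (-0.24 ± 0.034, adjusted p = 4.34e-07) and Pdia3 fell by 16.0%, while Canx stood near the control level (0.02 ± 0.034, adjusted p = 0.604). The isomerases Pdia4 and Txndc5 fell by 15.3% and 11.4%. Manf and Creld2 fell by 10.1% and 8.84%. Xbp1 fell by 7.86% (-0.12 ± 0.034, adjusted p = 0.00530), a call that was lost when libraries were scaled by their totals alone (adjusted p = 0.150). Atf6 fell by 8.01%.

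The 3 genes that rose after SFr were Fkbp2, Edem2 and Ern1. Fkbp2 stood at 25.9, 21.5 and 22.1 CPM in control and 26.8, 29.3 and 27.1 CPM after SFr (0.25 ± 0.076, adjusted p = 0.00725), and its adjusted p was 0.0628 without control replicate 2. Edem2 stood at 43.8, 43.0 and 41.8 CPM (0.18 ± 0.044, adjusted p = 0.00111). Edem1, a related gene of glycoprotein disposal, went the other way and fell by 15.6% (-0.24 ± 0.051, adjusted p = 0.000171). Ern1 stood at 42.4, 45.2 and 44.0 CPM in control and 48.0, 46.5 and 54.2 CPM after SFr (0.18 ± 0.057, adjusted p = 0.0110). SFr replicate 3 was the highest, and without it the adjusted p of Ern1 was 0.134.

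**Figure D4:**
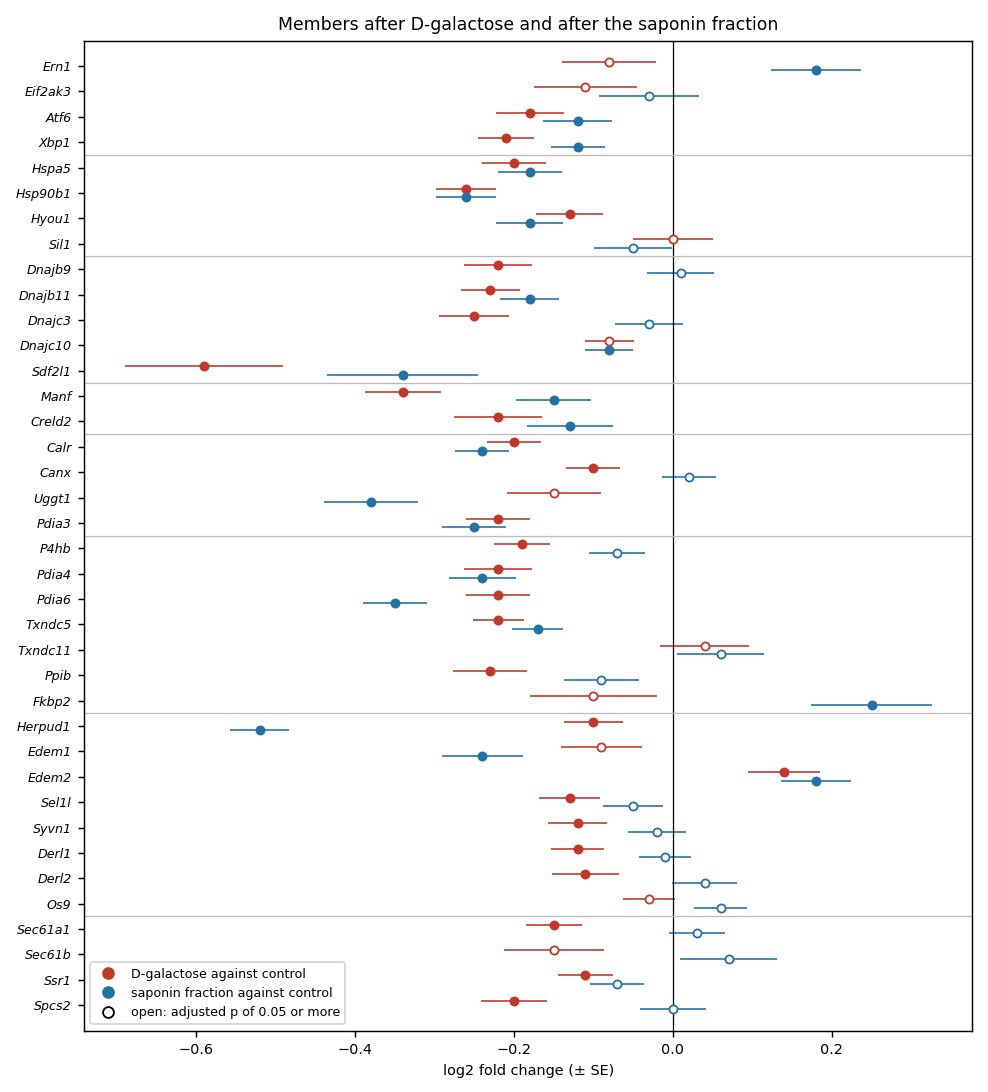
Log2 fold change ± SE of the 38 tested genes for D-galactose against control and for SFr against control, which share their control libraries. Filled points passed the test. Herpud1, Fkbp2, Ern1 and Sdf2l1 are among the genes whose 2 points lie furthest apart.

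Set side by side, D-galactose and SFr gave partly different profiles within the machinery. Against the control libraries that both share, 15 genes passed as lower in both, 12 only with D-galactose and 3 only with SFr. Only means here that the other comparison missed the threshold, not that the 2 differed. Dnajc10 passed with SFr alone, yet its mean was 202.3 CPM after SFr and 202.6 CPM in Dgal. The share of all genes lower in both was not counted, and can be no larger than 13.1%. Compared directly, SFr stood higher than Dgal in 16 genes and lower in 4, 42.1% and 10.5%, against 23.9% higher and 23.0% lower among all genes, a comparison added after the data had been seen. Herpud1 was lower after SFr (-0.42 ± 0.037, adjusted p = 2.24e-11), as were Uggt1 (-0.22 ± 0.059, adjusted p = 0.00271), Edem1 and Pdia6, of which Edem1 and Pdia6 lost their call without Dgal replicate 1. Of the 16 higher genes, Fkbp2 (0.35 ± 0.077, adjusted p = 0.000351), Ern1 (0.26 ± 0.058, adjusted p = 0.000429) and Dnajb9 (0.23 ± 0.042, adjusted p = 2.75e-05) were the furthest above Dgal. The other 13 higher genes included Dnajc3, Manf and the genes of entry Sec61a1, Sec61b and Spcs2, at 0.18 to 0.22. The difference was 0.01 ± 0.040 in Hspa5 and 0.01 ± 0.038 in Hsp90b1, and neither passed.

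SFr also lowered this machinery when given ahead of D-galactose. Against Dgal, SFr_Dgal was lower in 18 genes and higher in 2, 47.4% and 5.26%, against 21.0% lower and 20.3% higher among all genes, with a median of -0.09. With scaling by library totals alone the counts were 11 lower and 4 higher, and the shares of all genes with that scaling are not given. The comparisons of SFr with control and of SFr_Dgal with Dgal share no library. In both, 16 genes fell and Fkbp2 rose, and no gene moved in opposite directions. The shares of all genes that fell or rose in both were not counted, and can be no larger than 21.0% and 20.3%. The 16 included Xbp1, Hspa5, Hsp90b1, Calr, Pdia6, Uggt1, Edem1 and Herpud1, and with scaling by library totals alone 11 of them passed in both.

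The ER chaperones reached their lowest levels of the series in this group. Hspa5 stood at 657, 672 and 676 CPM in SFr_Dgal, below every library of the other 9 groups. Against Dgal it fell by 22.9% (-0.38 ± 0.040, adjusted p = 1.85e-09). Hsp90b1 stood at 604, 609 and 586 CPM, 21.7% below Dgal (-0.35 ± 0.038, adjusted p = 2.17e-09). Hyou1, Pdia4 and Pdia6 fell by 18.9%, 19.5% and 22.8%, and Pdia6 stood at 246, 239.5 and 260.5 CPM. Calr stood at 773, 776 and 778 CPM, with a spread of 2.27 CPM (-0.28 ± 0.034, adjusted p = 3.31e-08). Herpud1 stood at 183, 188 and 199.8 CPM (-0.46 ± 0.037, adjusted p = 3.19e-12), overlapping the SFr libraries.

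The 2 genes that rose were Fkbp2 and Dnajb9. Fkbp2 stood at 22.1, 21.8 and 21.2 CPM in Dgal and 28.0, 27.7 and 31.3 CPM in SFr_Dgal (0.42 ± 0.077, adjusted p = 3.73e-05). Dnajb9, which encodes ERdj4, a co-chaperone known to hold IRE1 inactive with BiP, stood at 58.8, 59.2 and 59.6 CPM in Dgal and 63.9, 65.9 and 65.9 CPM in SFr_Dgal (0.14 ± 0.043, adjusted p = 0.00844). Manf was at 85.2, 85.2 and 85.7 CPM, 8.17% below Dgal. Sdf2l1, at 9.29, 9.46 and 12.1 CPM, did not pass against Dgal (-0.17 ± 0.11, adjusted p = 0.200). Xbp1, at 161, 171 and 174 CPM, fell (-0.12 ± 0.035, adjusted p = 0.00528), a call lost in 3 of 12 alternative settings.

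Other markers moved with SFr as well. All 10 genes of dividing cells fell after SFr and in SFr_Dgal against Dgal, their summed level being 86.4 to 98.4 CPM in SFr and 50.5 to 54.1 CPM in SFr_Dgal. Of 11 myotube markers 9 fell and 1 rose after SFr, and the sum was 20577 to 21712 CPM in SFr and 23223 to 24783 CPM in SFr_Dgal. The sum of 9 markers of undifferentiated myoblasts was 494.8 to 505.1 CPM in control, 407.0 to 431.7 in SFr and 397.9 to 412.9 CPM in SFr_Dgal. The sum of 7 markers of bone and cartilage was 49.0 to 51.4 CPM in control and 66.0 to 69.1 in SFr, 39.3 to 44.3 in Dgal and 56.2 to 60.8 CPM in SFr_Dgal. Of the 2 of these that were tested 1 rose after SFr, and 1 rose and 1 fell in SFr_Dgal against Dgal. The sum of 5 markers of fat cells, none of them with enough counts to be tested, was near the floor in all groups. Its mean was 0.201 CPM in SFr, 0.168 in SFr_Dgal and between 0.0371 and 0.0795 CPM in the other 8 groups. For comparison, 3 counts stood for 0.0993 to 0.135 CPM, so these sums do not show that fat cells were present. The part of all these markers in the ER results was not tested.

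The other preparations changed few of these genes on their own. After RGW and after Rb2 no gene passed in edgeR's test or in DESeq2, with 3 and 4 genes at an unadjusted p under 0.05 and a smallest Benjamini-Hochberg adjusted p of 0.110 and 0.159. Among all genes, 2.04% were higher and 1.17% lower after RGW, and 0.575% and 0.960% after Rb2. After NSFr 2 genes rose and 2 fell, 5.26% each, against 4.56% higher and 3.51% lower among all genes. With scaling by library totals alone 5 were higher and 2 lower.

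The genes lower after NSFr were Herpud1 and Dnajb9. Herpud1 stood at 236, 247 and 254 CPM, below all controls and above all SFr libraries (-0.19 ± 0.037, adjusted p = 0.00153). Dnajb9 stood at 57.0, 63.6 and 60.4 CPM (-0.19 ± 0.042, adjusted p = 0.00355), with NSFr replicate 2 at 63.6 and control replicate 3 at 63.7, and its call was lost in a fit of the 2 groups alone. Sec61a1, the core of the protein channel, stood at 155, 161 and 170.0 CPM in control and 177, 171 and 178 CPM after NSFr (0.12 ± 0.035, adjusted p = 0.0333). Fkbp2 stood at 27.7, 28.1 and 27.1 CPM (0.25 ± 0.076, adjusted p = 0.0374). The calls of Sec61a1 and Fkbp2 were lost in 5 and 6 of 12 alternative settings.

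Given ahead of D-galactose, NSFr left 4 genes higher than D-galactose alone and none lower, 10.5% and 0%, against 3.50% higher and 2.82% lower among all genes. Sdf2l1 stood at 12.8, 10.3 and 11.9 CPM in Dgal and 15.9, 16.5 and 14.8 CPM in NSFr_Dgal (0.43 ± 0.10, adjusted p = 0.00824). Manf stood at 109.9, 102 and 107 CPM, above all 3 Dgal libraries (0.20 ± 0.048, adjusted p = 0.0109). Calr stood at 1072, 1048 and 1024 CPM (0.15 ± 0.034, adjusted p = 0.00622), also without overlap, and Fkbp2 at 30.3, 25.7 and 24.3 CPM (0.30 ± 0.078, adjusted p = 0.0169). These calls rest on few libraries: Sdf2l1 lost its call without Dgal replicate 2 (adjusted p = 0.0635), Manf without Dgal replicate 3 or NSFr_Dgal replicate 1, and Fkbp2 without any of Dgal replicate 2, Dgal replicate 3 or NSFr_Dgal replicate 1. Without Dgal replicate 2, without Dgal replicate 3 or without NSFr_Dgal replicate 1 the count was 2. Of the 10 markers of dividing cells 7 were higher in NSFr_Dgal than in Dgal (median 0.53), their sum being 131.1 to 150.4 CPM in NSFr_Dgal and 92.5 to 103.7 CPM in Dgal, and the part of these cells in the result was not tested.

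RGW ahead of D-galactose left no gene different from D-galactose alone in edgeR or in DESeq2, with 5 at an unadjusted p under 0.05 and a smallest adjusted p of 0.0830, against 2.52% higher and 2.54% lower among all genes. After Rb2 only Txndc5, a disulfide isomerase, passed (2.63% higher and 0% lower, against 1.16% and 1.10% among all genes). Txndc5 stood at 256, 248 and 259 CPM in Dgal and 283, 271 and 276 CPM in Rb2_Dgal (0.12 ± 0.032, adjusted p = 0.0309), between Dgal and the controls at 298, 296 and 297 CPM. This call was lost in 7 of 12 alternative settings. Here 5 of the 10 markers of dividing cells were higher, with a sum of 132.9 to 145.8 CPM in Rb2_Dgal, and their part was not tested.

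The fall with D-galactose was seen in all 5 backgrounds, in comparisons that share no library. Added to RGW, D-galactose lowered 21 genes (55.3%), against 8.93% of all genes. Without RGW_Dgal replicate 2 the count was 13. Added to SFr it lowered 25 (65.8%, against 10.5%), to NSFr 14 (36.8%, against 6.98%) and to Rb2 26 (68.4%, against 11.2%). None of the 38 rose in these 4 backgrounds (0%), where 6.30%, 8.46%, 5.76% and 9.81% of all genes did. The medians were -0.13, -0.17, -0.10 and -0.16. Markers of dividing cells were lower with D-galactose in these backgrounds as well, 10 of 10 with RGW, 9 with SFr, 10 with NSFr and 10 with Rb2, with medians of -0.75, -0.91, -0.72 and -0.78. Their part in the ER results was not tested.

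In all 5 backgrounds 13 genes fell: Xbp1, Hsp90b1, Dnajb11, Dnajc3, Calr, Pdia3, P4hb, Pdia4, Pdia6, Txndc5, Ppib, Derl1 and Sec61a1. They reach from the transcription factor and the chaperones to the isomerases and the channels of entry and exit. Without RGW_Dgal replicate 2 this number was 9, and over the other settings and left-out libraries it was 10 to 14. A further 5 genes fell in 4 backgrounds, and 31 of the 38 had a value below 0 in all 5. The 7 that fell in none were Ern1, Eif2ak3, Sil1, Uggt1, Txndc11, Fkbp2 and Edem2, among them the sensors IRE1 and PERK. None of these counts over several backgrounds was made for all genes tested. The share of all genes lower in all 5 can be no larger than 6.98%, the share lower when D-galactose was added to NSFr. Hsp90b1 fell by 0.26 on the log2 scale in vehicle, 0.26 with RGW, 0.36 with SFr, 0.22 with NSFr and 0.32 with Rb2. Txndc5, encoded at chr13:38500079-38528824 of GRCm38, fell by 0.22, 0.23, 0.18, 0.20 and 0.19 in the same order.

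**Figure D5:**
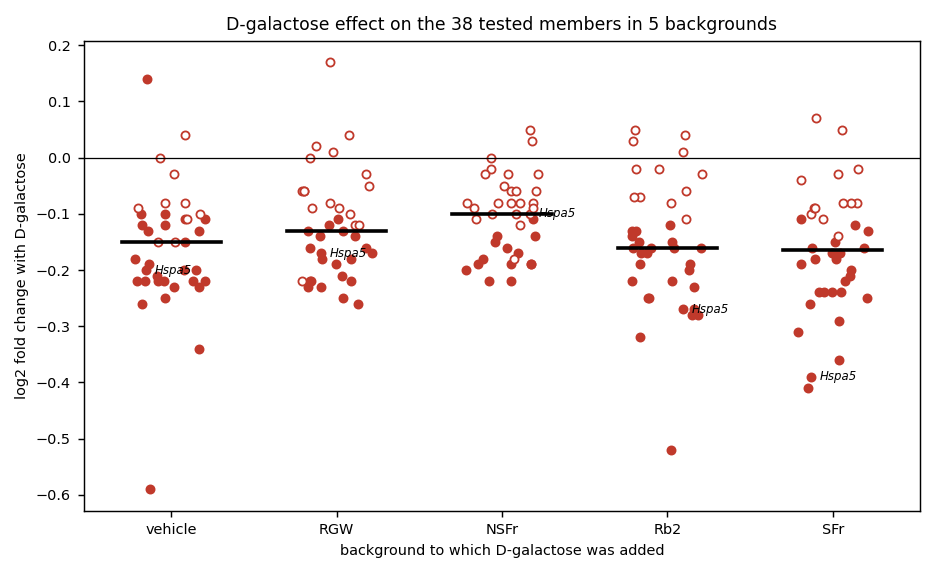
Log2 fold change with D-galactose of the 38 tested genes in 5 backgrounds (points, filled where adjusted p was under 0.05) with the median as a bar. The medians lie between -0.10 and -0.17, and Hspa5 ranges from -0.10 after NSFr to -0.39 after SFr.

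Hspa5 was the gene whose D-galactose effect differed over the backgrounds. In the test of that difference over all 5 backgrounds, 1 of the 38 genes passed, Hspa5 (adjusted p = 0.0323, edgeR), against 0.796% of all genes, with 5 at an unadjusted p under 0.05. Hspa5 stood at 985 ± 36.5 CPM after RGW and 877 ± 36.0 in RGW_Dgal (SD, n = 3), at 972 ± 33.3 after NSFr and 908 ± 11.3 in NSFr_Dgal, and at 1031 ± 40.7 after Rb2 and 855 ± 40.3 in Rb2_Dgal. Its change with D-galactose was -0.20 ± 0.040 in vehicle, -0.17 ± 0.040 on top of RGW, -0.39 ± 0.040 on top of SFr, -0.10 ± 0.040 on top of NSFr (adjusted p = 0.110) and -0.27 ± 0.040 on top of Rb2. The call was lost when any of 10 libraries was left out, all from SFr, SFr_Dgal, NSFr or NSFr_Dgal: SFr replicates 1 and 2, NSFr replicates 2 and 3, and every library of SFr_Dgal and NSFr_Dgal. The adjusted p then reached 0.113.

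Tested for each preparation against vehicle, the difference in D-galactose effect passed for no gene. The background was 0% of all genes for RGW, 0.583% for SFr, 0.0410% for NSFr and 0% for Rb2. In edgeR 4, 4, 4 and 0 of the 38 genes had an unadjusted p under 0.05, with a smallest adjusted p of 0.236, 0.113, 0.352 and 0.960, and DESeq2 also called none. For Hspa5 the effect after SFr was lower than that in vehicle by a log2 difference of -0.19 ± 0.057 (adjusted p = 0.113). For Sdf2l1 the effect was smaller after RGW by 0.37 ± 0.14 (adjusted p = 0.392) and after NSFr by 0.41 ± 0.14 (adjusted p = 0.472). For Manf it was smaller after RGW by 0.23 ± 0.067 (adjusted p = 0.236). Sdf2l1 and Manf passed with D-galactose in vehicle and not after RGW (-0.22 ± 0.096, adjusted p = 0.125 and -0.10 ± 0.047, adjusted p = 0.135), but these differences did not pass.

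The saponin and non-saponin fractions, both given at 100 µg/mL, were also compared with each other. Without D-galactose SFr was lower than NSFr in 19 genes and higher in 2, 50.0% and 5.26%, against 19.6% lower and 20.8% higher among all genes. The furthest below were Sdf2l1 (-0.37 ± 0.094, adjusted p = 0.00184), Calr (-0.34 ± 0.034, adjusted p = 4.07e-10), Pdia6 (-0.34 ± 0.040, adjusted p = 1.36e-08) and Herpud1 (-0.33 ± 0.037, adjusted p = 4.73e-09). Ern1 (0.24 ± 0.057, adjusted p = 0.000898) and Dnajb9 (0.21 ± 0.042, adjusted p = 0.000149) were above. Xbp1 was lower (adjusted p = 0.0377), a call lost in 7 of 12 settings.

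With D-galactose the 2 fractions differed in 26 genes. SFr_Dgal was lower than NSFr_Dgal in 24 and higher in 2, 63.2% and 5.26%, against 20.3% lower and 20.7% higher among all genes, with a median of -0.15. Sdf2l1 was 0.61 lower on the log2 scale (-0.61 ± 0.10, adjusted p = 7.56e-06), Hspa5 0.44 (-0.44 ± 0.040, adjusted p = 3.50e-11), Calr 0.43 (-0.43 ± 0.034, adjusted p = 1.38e-12) and Pdia6 0.43 (-0.43 ± 0.040, adjusted p = 9.55e-11). Herpud1 was 0.42 lower (-0.42 ± 0.037, adjusted p = 2.33e-11). In Hspa5, Calr and Pdia6 every SFr_Dgal library lay below every NSFr_Dgal library. Dnajb9 (0.14 ± 0.042, adjusted p = 0.00853) and Ern1 (0.18 ± 0.058, adjusted p = 0.0121) were higher in SFr_Dgal, and Ern1 lost its call without SFr_Dgal replicate 1 and without NSFr_Dgal replicate 1. The fractions also differed in other markers. All 10 markers of dividing cells were lower in SFr than in NSFr (median -1.40) and in SFr_Dgal than in NSFr_Dgal (median -1.64). Of 11 myotube markers 10 were lower and 1 higher in SFr than in NSFr, and 7 lower and 1 higher with D-galactose. Of 9 myoblast markers 4 were lower and 2 higher, and 5 lower and 1 higher with D-galactose. The part of these in the ER results was not tested.

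Other genes of the same pathways were followed as well, 77 tested of 86 listed. D-galactose lowered 21 of them and raised 3, with 13.1% lower and 11.9% higher among all genes tested. SFr lowered 27 and raised 7, with 21.8% and 21.3% among all genes, and SFr_Dgal against Dgal was lower in 28 and higher in 12, with 21.0% and 20.3% among all genes. Of 22 other genes of ER folding and oxidation, 9 fell and 2 rose with D-galactose, among them Wfs1, the wolframin gene of ER calcium balance (-0.49 ± 0.040, adjusted p = 4.47e-11), and the proline isomerase genes Fkbp7 (-0.32 ± 0.065) and Ppic (-0.31 ± 0.036). After SFr 11 of the 22 fell and none rose, with Wfs1 at -0.63 ± 0.040, Tmx4, a membrane thioredoxin, at -0.56 ± 0.040 and Ppic at -0.48 ± 0.036. Of 9 other ER stress factors and their proteases, Creb3l1, an ER-anchored transcription factor, fell both with D-galactose (-0.33 ± 0.046) and after SFr (-0.66 ± 0.046). Mbtps1, the protease that first cuts ATF6, fell with D-galactose (-0.29 ± 0.033), and Nfe2l1, a factor that is released from the ER and raises proteasome genes, rose after SFr (0.27 ± 0.028).

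Of 15 other genes of ER-associated degradation, 1 fell with D-galactose and none rose. After SFr 4 rose, a share near the 21.3% among all genes, and 1 fell, with 21.8% among all genes. Vcp, the ATPase that pulls proteins out of the ER (0.17 ± 0.030), and its cofactor Nploc4 (0.15 ± 0.030) were among those that rose, and Edem3 fell (-0.21 ± 0.040). Of 23 other genes of translocation, signal peptide cleavage and glycan transfer, 6 fell and 1 rose with D-galactose, among them Ostc of the oligosaccharyltransferase (-0.26 ± 0.052), and 8 fell and 1 rose after SFr, among them Sec61a2 (-0.26 ± 0.042).

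The 8 genes listed as output of PERK and ATF4 are the arm that slows translation and raises amino acid and redox genes. With D-galactose 1 of the 8 fell, Chac1, a glutathione-degrading enzyme gene (-0.42 ± 0.10, adjusted p = 0.00336), with 13.1% lower among all genes. After NSFr 7 of 8 fell, against 3.51% of all genes, with Trib3, a pseudokinase gene induced by ATF4, at -0.78 ± 0.14, Chac1 at -0.59 ± 0.10, Ddit3, which encodes CHOP, at -0.38 ± 0.10 and Atf4 at -0.29 ± 0.047. After RGW 6 of 8 fell, against 1.17% of all genes, with Trib3 at -0.50 ± 0.13, Chac1 at -0.48 ± 0.10, Ddit3 at -0.38 ± 0.10 and Atf4 at -0.20 ± 0.047. After SFr 3 fell, Chac1 (-0.64 ± 0.10), Sesn2 (-0.43 ± 0.069) and Atf4 (-0.15 ± 0.047), with 21.8% among all genes, and after Rb2 none did, with 0.960%. Against Dgal, 4 of the 8 were lower in NSFr_Dgal, 1 in RGW_Dgal and none in Rb2_Dgal, where 1 was higher, with 2.82%, 2.54% and 1.10% lower among all genes. In SFr_Dgal 3 were lower and 2 higher. With scaling by library totals alone 6 of 8 fell after NSFr and 6 of 8 after RGW, while after SFr 2 fell and 1 rose. Of the 38 folding and disposal genes themselves none passed after RGW and 4 did after NSFr.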

How the data were processed

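RNA from 30 C2C12 cultures was measured by poly(A) sequencing (directional MGIEasy libraries, paired ends on DNBSEQ, per the labels). The authors deposited a table of RSEM expected counts without normalization. The submitters' processing notes name RSEM 1.3.3, STAR 2.7.9a, Trim Galore 0.6.10 and FastQC 0.11.9, and the builds GRCm38 and mm10. The annotation and strand setting of the counting were not given in the sources used here, so genes with overlapping exons or close copies (Calr-ps, Spcs2-ps) are uncertain. Of the values, 19.4% were not whole numbers, and all were rounded.

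Of 16025 symbols, 16021 matched GENCODE vM21 on GRCm38, which gave coordinates and exon lengths. The test was edgeR 4.0.16 (quasi-likelihood, robust, TMM, filterByExpr) in R 4.3.3, in a group model over all 30 libraries with Benjamini-Hochberg adjustment over 12184 genes. The biological coefficient of variation was 4.25%. The standard error is the absolute log2 fold change over the square root of F. Pairs of replicates differed by more than sampling noise and none were merged. Alternatives were RLE scaling, library totals, no filter, DESeq2 1.42.0, a fit of the compared groups alone, a block for the replicate number, and leaving out each library in turn. The test was checked on simulated data.

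The 39 genes and all lists were chosen with earlier results of these data known. Hspa5, Xbp1, Hsp90b1 and Herpud1 are given library by library in some groups. So are most of the genes of smallest p over the 10 groups and most called genes of largest rise and fall in each comparison. Pdia3, Pdia4, Dnajc3 and Ppib belong to these but are given without library values. Other genes are given by counts and ranges or in part.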

Additional observations from a re-analysis of the deposited data

Results flagged for a closer look

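The D-galactose effect on Hspa5, the BiP gene, differed between the 5 backgrounds in edgeR's test of the difference over all of them (Benjamini-Hochberg adjusted p = 0.0323). It was -0.20 ± 0.040 on the log2 scale in vehicle, -0.39 ± 0.040 after SFr and -0.10 ± 0.040 after NSFr. In the single tests against vehicle the difference after SFr was -0.19 ± 0.057 (adjusted p = 0.113) and after NSFr 0.10 ± 0.057 (adjusted p = 0.754), and neither passed. The call over all 5 backgrounds was lost when any of 10 libraries was left out, with an adjusted p in edgeR of up to 0.113.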

How the results depend on the processing

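A set of 114 gene values, not all of them printed above, was recomputed in the alternative settings. They include the test of Hspa5 over the 5 backgrounds, which has no direction. None of the others changed direction. Of the 114, 90 kept their call throughout and 24 lost it in at least 1 setting. Values in the text outside this set were not recomputed one by one. With scaling by library totals alone NSFr against control had 7 genes and Rb2_Dgal against Dgal 0, and with only the groups compared these had 1 and 0. When 1 library was left out, the counts ran from 0 to 2 for RGW against control, 2 to 4 for NSFr against control, 0 to 1 for RGW_Dgal against Dgal, 2 to 5 for NSFr_Dgal against Dgal, 0 to 1 for Rb2_Dgal against Dgal, 13 to 20 for RGW_Dgal against RGW and 0 to 1 for the test of D-galactose over the backgrounds. The counts of 2 came without control replicate 3 (RGW), without control replicate 2 or NSFr replicate 1 (NSFr). Rb2_Dgal against Dgal had 0 without any library except Dgal replicate 3. The causes were not tested. With the replicate block 26 genes passed for Dgal against control, 19 for SFr_Dgal against Dgal and 27 for SFr_Dgal against NSFr_Dgal, in place of 28, 20 and 26. No strong pairing by replicate number was seen: in 0 of 15 comparisons were all 3 correlations of same-numbered libraries over 0.1. With 3 libraries per group this check cannot exclude a weaker pairing. The 3 libraries per group limit which small changes can be seen, and Derl3 was too shallow to test.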

Other observations

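Genes of collagen and of its folding, which pass through the ER in matrix-producing cells, fell with the saponin fraction. After SFr 16 of 21 tested fell and 1 rose, with a median log2 fold change of -0.41, against 21.8% lower and 21.3% higher among all genes tested. With RLE scaling 16 fell and 0 rose. Col5a1 changed by -1.18 ± 0.071 (edgeR, Benjamini-Hochberg adjusted p = 5.85e-13), Col11a1 by -1.10 ± 0.14 and Col5a3 by -1.01 ± 0.055. Between SFr_Dgal and Dgal, with no library shared with the comparison before, 15 of 21 fell and none rose, and Col5a1 changed by -1.05 ± 0.070. Among all genes 21.0% were lower and 20.3% higher there. Serpinh1, which encodes the collagen chaperone HSP47 of the ER, fell with D-galactose (-0.46 ± 0.033, adjusted p = 3.10e-12), after SFr (-0.41 ± 0.033) and in SFr_Dgal against Dgal (-0.30 ± 0.033). With D-galactose 4 of the 21 fell and 2 rose, near the shares of 13.1% lower and 11.9% higher among all genes. With scaling by library totals alone 3 fell and 3 rose. After RGW none of the 21 passed in edgeR, after NSFr 1 was lower and after Rb2 2 were higher. Among all genes 2.04% were higher and 1.17% lower after RGW, 3.51% lower after NSFr and 0.575% higher after Rb2. Against Dgal, Rb2_Dgal was higher in 5 and lower in none (median 0.15), while RGW_Dgal and NSFr_Dgal were each lower in 1. Of all genes 1.16% were higher and 1.10% lower in Rb2_Dgal, 2.54% lower in RGW_Dgal and 2.82% lower in NSFr_Dgal.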
